A study of Mus musculus with 20 samples.

Results

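Adrenomedullin is a vasodilator peptide that acts through a receptor built from parts, and 5 genes of that system were followed here in mouse epididymal fat: the peptide gene Adm (ENSMUSG00000030790), the receptor gene Calcrl (ENSMUSG00000059588) and the accessory protein genes Ramp1 (ENSMUSG00000034353), Ramp2 (ENSMUSG00000001240) and Ramp3 (ENSMUSG00000041046). They are 5 of 39179 gene IDs in the count table, and 4 of the 5 passed the filter on low counts, which left 15254 genes. Ramp2 was chosen because an earlier analysis of the same libraries had found it higher on high-fat diet, so its differences between diets are given as a description, with no test. The other 4 genes were added by name as its ligand, its receptor and its family members.

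Calcrl encodes a G protein-coupled receptor that reaches the cell surface only together with a receptor activity-modifying protein (RAMP). With RAMP1 it forms the receptor for calcitonin gene-related peptide (CGRP), and with RAMP2 or RAMP3 it forms the adrenomedullin receptors. The receptor couples to Gs and raises cyclic AMP. Adrenomedullin signalling through CALCRL and RAMP2 is best known from endothelium, where it is needed for the growth and integrity of blood and lymphatic vessels. In fat tissue the endothelium lies between lipid-filled adipocytes, progenitor cells, macrophages and an outer mesothelium.

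The fat came from male C57BL6/J mice, an inbred laboratory strain, with no genotype or age given in the sources used here. The control group was on normal chow (day 0), and the other groups were taken 2, 4, 6 or 14 days into high-fat feeding. Each of the 5 groups holds 4 libraries, 20 in all, described as biological replicates, and the comparison asks how gene expression moved over the first days of high-fat feeding. Every library is a piece of whole tissue, so fewer cells of a type and less RNA per cell cannot be told apart.

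Total counts ranged from 1916829 to 38832429 per library, and the tissue identity was checked against marker genes. Adipocyte markers summed to 37529 to 64780 counts per 1000000 (CPM) on chow and 32259 to 73179 CPM on high-fat diet. Endothelial markers summed to 1689 to 2216 CPM on chow, and all 20 of them passed the filter. 4 libraries stood apart: day 2 replicate 1 by its total of 1916829 counts, chow replicate 4 by markers of duct epithelium, and day 4 replicate 1 and day 6 replicate 4 by proliferation markers. Proliferation markers summed to 51.6 CPM in day 4 replicate 1 against 425 to 526 CPM in the other day 4 libraries, and to 304 CPM in day 6 replicate 4 against 37.8 to 84.8 CPM in the other day 6 libraries. Levels below are CPM on totals scaled by the trimmed mean of M-values (TMM), changes are log2 differences with their standard error (SE), and a gene is called when edgeR's quasi-likelihood test gives a Benjamini-Hochberg adjusted p under 0.05 over all 15254 genes.

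Of the receptor parts, Ramp2 was by far the most abundant message. Per kilobase of transcript its median level over the 20 libraries was 61.9 CPM per kb, against 6.68 CPM per kb for Adm, 4.59 CPM per kb for Calcrl, 1.21 CPM per kb for Ramp1 and 0.196 CPM per kb for Ramp3. The mean level of Ramp2 stood at the 82.6th percentile of the tested genes, Calcrl at the 54.7th, Adm at the 38.3th and Ramp1 at the 22.2th, on the CPM scale without correction for length. Ramp2 was thus the most abundant RAMP message, and Calcrl, its partner at the cell surface, was read at a lower level per kilobase.

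**Figure D1:**
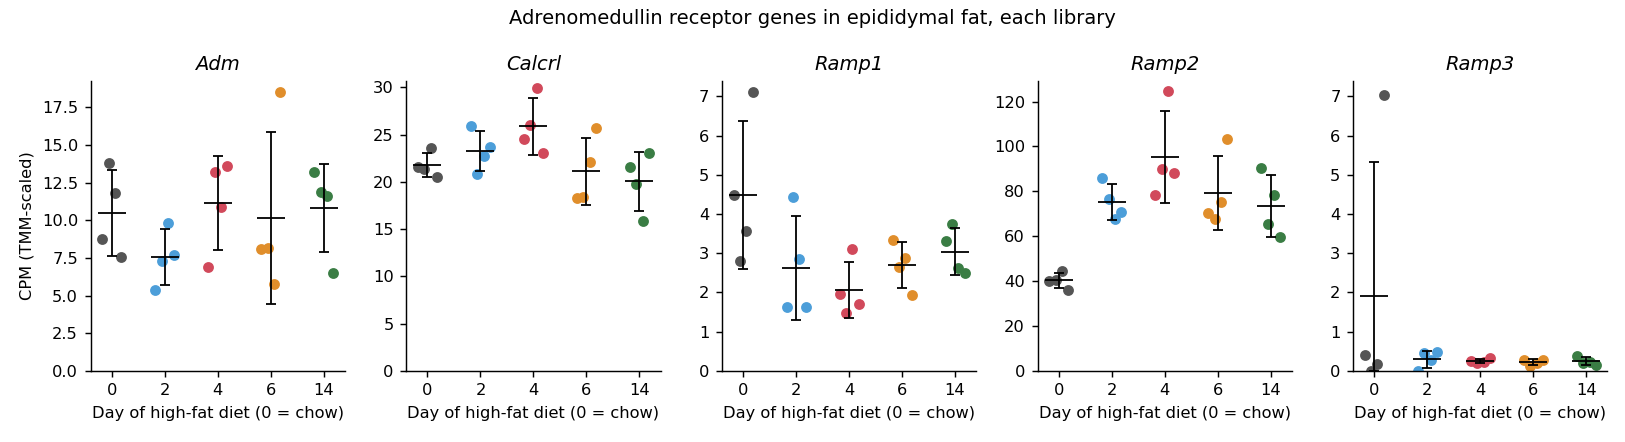
CPM of the 5 genes (vertical axes, TMM-scaled, each from 0) by day of high-fat diet, with day 0 as chow and days spaced evenly. Points are the 4 libraries of a group, the long bar is their mean and the error bar 1 SD (for Ramp3 on chow it is cut at 0), and all 16 high-fat points of Ramp2 lie above its 4 chow points.

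Ramp2 was higher in every high-fat library than in any chow library. On chow it measured 40.1, 40.7, 44.3 and 35.9 CPM in replicates 1 to 4. After 2 days it measured 85.8, 76.5, 67.5 and 70.6 CPM. The lowest of the day 2 libraries thus lay well above the highest chow library, and the day 2 library with the fewest reads, replicate 1, rested on 159 reads of Ramp2. After 4 days the values were 78.1, 90.1, 125 and 88.2 CPM, and after 6 days 70.3, 67.8, 75.3 and 103 CPM. After 14 days they were 90.3, 65.4, 78.3 and 59.5 CPM. The high-fat groups overlapped each other on each successive pair of days, while none overlapped chow.

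In means ± SD (n = 4 each), Ramp2 went from 40.3 ± 3.44 CPM on chow to 75.1 ± 8.05 CPM on day 2, 95.3 ± 20.3 CPM on day 4, 79.2 ± 16.4 CPM on day 6 and 73.4 ± 13.8 CPM on day 14. The log2 change from chow was 0.89, 1.24, 0.98 and 0.87 on days 2, 4, 6 and 14, each ± 0.16 (SE), or 1.85-fold, 2.36-fold, 1.97-fold and 1.83-fold. The order of the means was day 4, day 6, day 2, day 14 and chow, and only the step from day 14 to chow had no overlap between libraries. Between successive high-fat days the change was 0.35 ± 0.16 from day 2 to day 4, -0.26 ± 0.16 from day 4 to day 6 and -0.11 ± 0.15 from day 6 to day 14. Most of the difference from chow was thus present at the first sampled day.

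Among all 15254 genes, 161 (1.06%) had all 16 high-fat libraries above all 4 chow libraries, and 49 (0.321%) were called higher than chow on each of the 4 days. Since Ramp2 was chosen for its change, these shares only place it. Groups that did not overlap, with the high-fat side higher, made up 5.47%, 15.2%, 6.2% and 5.28% of genes on days 2, 4, 6 and 14. Between successive high-fat days, 7.23%, 6.67% and 1.67% of genes had groups that did not overlap, in either direction. Without each library in turn the Ramp2 change stayed between 0.83 and 0.94 on day 2, 1.08 and 1.32 on day 4, 0.82 and 1.05 on day 6, and 0.76 and 0.96 on day 14. Without chow replicate 4 and day 2 replicate 1 together it was 0.80, 1.18, 0.93 and 0.82 on days 2, 4, 6 and 14.

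1 feature of the locus bears on how Ramp2 reads are read. In the GENCODE M21 annotation of the GRCm38 assembly, Ramp2 and Vps25, which encodes a subunit of the ESCRT-II sorting complex, lie on the same strand and share 1103 of the 3301 exon bases of Ramp2 (33.41%) and 67.17% of those of Vps25. The annotation behind the counts is not given in the sources used here, so how reads in shared exons were assigned is unknown. Vps25 itself had 230 reads over all libraries against 23673 for Ramp2, and measured 0.549 ± 0.262 CPM on chow, 0.563 ± 0.406 CPM on day 2, 1.42 ± 0.821 CPM on day 4, 0.639 ± 0.245 CPM on day 6 and 0.484 ± 0.0628 CPM on day 14. Its log2 change from chow was 0.24, 1.15, 0.19 and -0.20 on days 2, 4, 6 and 14, and none was called (the smallest edgeR adjusted p was 0.0549, on day 4).

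Calcrl, the receptor that RAMP2 serves, did not pass the test on any day. It measured 21.6, 21.4, 23.6 and 20.5 CPM in the chow replicates, 25.9, 20.8, 22.7 and 23.7 CPM on day 2 and 24.5, 26.1, 29.96 and 23.01 CPM on day 4. The day 6 values were 18.3, 18.4, 22.05 and 25.7 CPM and the day 14 values 21.6, 19.7, 15.8 and 23.01 CPM. All high-fat groups overlapped chow, and the group means followed the order day 4 (25.9 CPM), day 2 (23.3 CPM), chow (21.8 CPM), day 6 (21.1 CPM) and day 14 (20.05 CPM), with overlap between each neighbouring pair.

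The log2 change of Calcrl from chow was 0.08 ± 0.13, 0.24 ± 0.13, -0.05 ± 0.12 and -0.12 ± 0.12 on days 2, 4, 6 and 14, with edgeR adjusted p = 0.758, 0.147, 0.854 and 0.659. The 95% interval of the day 4 change ran from -0.03 to 0.50, which leaves room for a rise of up to 0.50 and lies below the 1.24 of Ramp2. With scaling by library size only, the day 2 change had the other sign (-0.03). The share of all genes called on days 2, 4, 6 and 14 was 4.39%, 35.3%, 3.45% and 1.18% in either direction, 2.43%, 18%, 1.99% and 0.878% higher, and 1.96%, 17.3%, 1.46% and 0.302% lower. Calcrl thus stayed uncalled also on day 4, the day with the most calls.

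The balance between the messages of accessory protein and receptor differed between the diets. Per kilobase, Ramp2 stood at 7.65 ± 0.281 times Calcrl on chow (7.24 to 7.88 in the 4 libraries). The ratio was 13.4 ± 1.38, 15.2 ± 1.76, 15.5 ± 1.06 and 15.6 ± 4.24 on days 2, 4, 6 and 14, and the day 14 libraries ran from 10.7 to 20.5. Every high-fat library had a higher ratio than every chow library, and the high-fat days overlapped each other. These ratios contain Ramp2 and are a description. They use the longest GENCODE M21 transcript of each gene that is paired with a RefSeq mRNA (1178 bases for Ramp2 and 4882 bases for Calcrl), so their absolute size depends on that choice while their relative change does not.

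**Figure D2:**
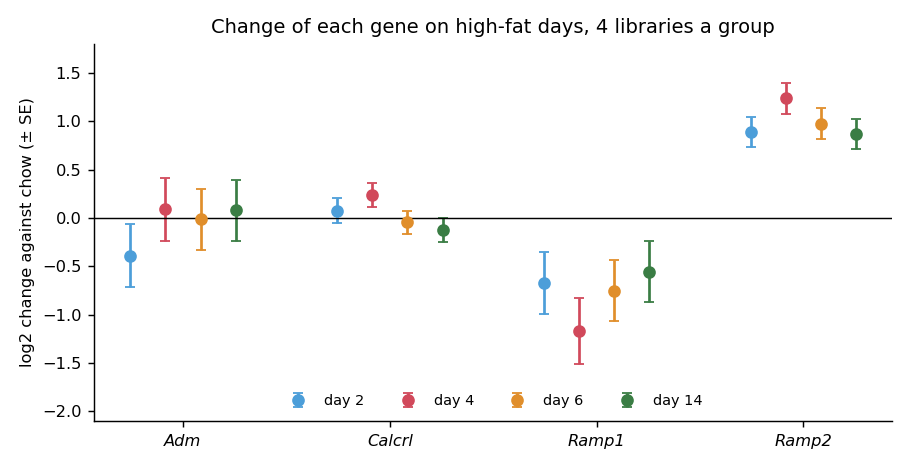
Log2 change against chow (vertical axis) for the 4 genes that passed the filter, by high-fat day, with the edgeR estimate as a point and its SE as the bar. Ramp2 lies at 0.87 to 1.24, Calcrl and Adm lie near 0, and Ramp1 lies below 0 at -1.17 to -0.56.

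Ramp1, the accessory protein of the CGRP receptor, had the opposite sign to Ramp2. It measured 4.48, 2.79, 3.57 and 7.10 CPM on chow, and 1.97, 1.47, 3.11 and 1.70 CPM on day 4. Replicate 4 was the highest chow library, and replicate 3 of day 4 lay above replicate 2 of chow, so the groups overlapped. The values were 1.62, 4.43, 2.84 and 1.64 CPM on day 2, 3.33, 2.65, 2.88 and 1.95 CPM on day 6 and 3.31, 3.76, 2.62 and 2.49 CPM on day 14. The order of the means was chow (4.49 CPM), day 14 (3.04 CPM), day 6 (2.70 CPM), day 2 (2.63 CPM) and day 4 (2.06 CPM), with overlap between each neighbouring pair.

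Ramp1 fell on day 4, by 1.17 ± 0.34 on the log2 scale (edgeR adjusted p = 0.0133), a day on which 17.3% of all genes were called lower. The changes on day 2 (-0.67 ± 0.33), day 6 (-0.75 ± 0.31) and day 14 (-0.56 ± 0.32) did not pass the test, with edgeR adjusted p = 0.198, 0.151 and 0.371. The day 4 call rested on single libraries: the change was -0.87 (edgeR adjusted p = 0.0507) without chow replicate 4 and -1.08 (edgeR adjusted p = 0.0521) without day 4 replicate 4. The depth behind it was low, with 24 to 228 reads per chow library and 7 to 31 reads per day 4 library.

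Ramp3, the RAMP of the second adrenomedullin receptor, was almost unread outside a single library. It had 308 reads in all, of which 226 (73.4%) were in chow replicate 4, at 7.04 CPM. The other 19 libraries held 82 reads between them, at most 10 in a library and at most 0.468 CPM, and 2 libraries had none. In those 2, chow replicate 2 and day 2 replicate 1, a count of 0 allows up to 0.349 CPM and 1.62 CPM (3 counts, for counting error only). In chow replicates 1 to 3 there were 7, 0 and 7 reads, and the groups of days 2, 4, 6 and 14 held 20, 11, 21 and 16 reads. Ramp3 failed the low-count filter and so has no call. When every gene was kept, its changes from chow had edgeR adjusted p of 0.0688 to 0.214.

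The library with the Ramp3 reads also held markers of duct epithelium, the lining of ducts such as the epididymis that adjoins this fat pad. Summed over 10 markers of duct epithelium and epididymis, chow replicate 4 reached 250 CPM. The other 3 chow libraries lay between 19.8 and 28.8 CPM and the high-fat libraries between 5.25 and 22.7 CPM. Epcam, an epithelial adhesion molecule, reached 41.2 CPM there and Krt8, an epithelial keratin, 81.6 CPM. Only 4 of the 10 markers passed the filter, and edgeR called 2, 4, 1 and 0 of them lower than chow on days 2, 4, 6 and 14. The shares of all genes called lower were 1.96%, 17.3%, 1.46% and 0.302%. Without chow replicate 4 the day 4 count was 2. On day 4 Krt7 and Krt8 were kept in 8 of 8 fits without 1 library, while Epcam was lost without chow replicate 4 (edgeR adjusted p = 0.181). On day 14, 3 of the 4 markers had an unadjusted p under 0.05, DESeq2 called 1 and limma-voom 0. Ramp1 was highest in the same library, at 7.10 CPM. The part of these cells in the Ramp1 and Ramp3 levels was not tested, but without the library the chow range was 2.79 to 4.48 CPM for Ramp1 and 0 to 0.407 CPM for Ramp3.

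**Figure D3:**
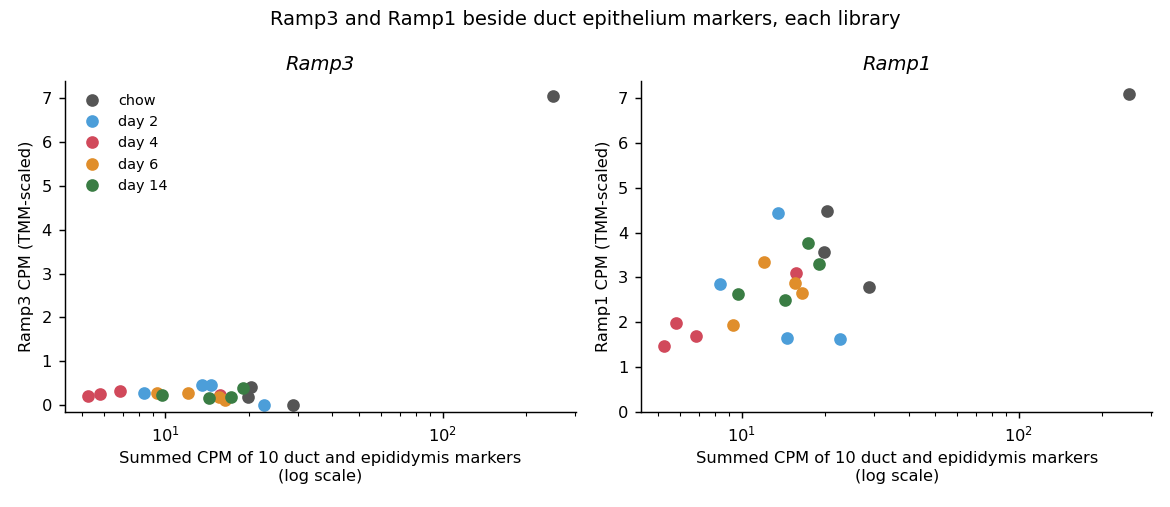
CPM of Ramp3 (left) and Ramp1 (right), each from 0 on the vertical axis, against the summed CPM of 10 markers of duct epithelium and epididymis (horizontal log axis), 1 point a library. Chow replicate 4 stands alone at 250 CPM of the markers, with 7.04 CPM of Ramp3 and 7.10 CPM of Ramp1.

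Adm, the peptide itself, showed no called change. It measured 8.72, 13.8, 11.8 and 7.54 CPM in the chow replicates and 5.40, 7.29, 9.85 and 7.72 CPM on day 2. On day 4 the values were 6.87, 13.2, 10.9 and 13.6 CPM, on day 6 they were 8.12, 8.14, 5.77 and 18.5 CPM and on day 14 they were 13.2, 11.9, 11.6 and 6.53 CPM. The highest single value, 18.5 CPM, was in day 6 replicate 4, and all groups overlapped. The means followed the order day 4 (11.1 CPM), day 14 (10.8 CPM), chow (10.5 CPM), day 6 (10.1 CPM) and day 2 (7.56 CPM).

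The log2 change of Adm from chow was -0.39 ± 0.33, 0.09 ± 0.32, -0.02 ± 0.31 and 0.08 ± 0.32 on days 2, 4, 6 and 14, with edgeR adjusted p = 0.475, 0.861, 0.987 and 0.942. The spread of Adm was wide, with a coefficient of variation of 24.2% to 56.3% within groups against 8.54% to 21.3% for Ramp2. The 95% interval on day 4 ran from -0.60 to 0.78, which leaves room for a fall or a rise of that size. The sign of the day 4 change was negative with scaling by library size only (-0.01). It was also negative without chow replicate 4 (-0.06) and without day 4 replicate 4 (-0.06). The day 14 change was negative without chow replicate 4 (-0.05). Between successive high-fat days, Adm, Calcrl and Ramp1 had no called change, on steps where 2.4% (day 2 to day 4), 0% (day 4 to day 6) and 0% (day 6 to day 14) of all genes were called. On the steps with 0 called genes by edgeR, 2492 and 508 genes had an unadjusted p under 0.05, DESeq2 called 53 and 0, and limma-voom called 0 and 0. Without the 4 libraries that stood apart, Adm was called lower on day 6 than on day 4 (-0.75, edgeR adjusted p = 0.0462).

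Since the receptor is best known from endothelium, its genes were set beside endothelial markers. Of 20 endothelial markers 9 were called higher on day 4 and none lower, with a median log2 change of 0.46 against -0.02 for all genes. The shares of all genes called on that day were 18% higher and 17.3% lower. Kdr, a receptor for vascular endothelial growth factor, rose by 0.65 ± 0.16, Eng, a co-receptor of the TGF-beta family, by 0.72 ± 0.17 and Cd93, an endothelial glycoprotein, by 1.32 ± 0.32. The summed markers were 2014 to 3647 CPM on day 4, and day 4 replicate 1 was the lowest of them. Without chow replicate 4 the count was 6, and without day 4 replicate 1 it was 11.

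On the other days the endothelial markers gave no call by edgeR, while Ramp2 lay at means of 73.4 to 79.2 CPM, below its 95.3 CPM of day 4 and above its 40.3 CPM of chow. The median log2 change of the 20 markers was -0.01 on day 2, 0.19 on day 6 and 0.12 on day 14. An unadjusted p under 0.05 was found for 1, 2 and 0 markers on those days, and neither DESeq2 nor limma-voom called any. Their summed level was 1933 to 2146 CPM on day 2, inside the chow range of 1689 to 2216 CPM. It was 1833 to 3424 CPM on day 6 and 1838 to 2703 CPM on day 14, and the highest libraries were day 6 replicate 4 and day 14 replicate 1, which also had the highest Ramp2 of their groups.

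Set against the mean log2 level of the 20 endothelial markers in the same library, Ramp2 lay at -0.91 to -0.71 on chow. It lay at -0.08 to 0.23 on day 2, at -0.31 to 0.20 on day 4, at -0.16 to 0.25 on day 6 and at -0.17 to 0.12 on day 14. The lowest high-fat library was above the highest chow library, and the share of all genes with this pattern on this measure was not counted. The mean difference from chow was 0.90, 0.77, 0.81 and 0.77 on days 2, 4, 6 and 14, while the marker mean itself moved by -0.01, 0.46, 0.15 and 0.08. On this measure the mean difference of Ramp2 was not highest on day 4. Ramp2 was chosen for its change, so these values are a description. The part of endothelial cells in the Ramp2 level was not tested. Calcrl on the same measure differed from chow by 0.10, -0.21, -0.21 and -0.21, and its groups overlapped chow on every day.

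**Figure D4:**
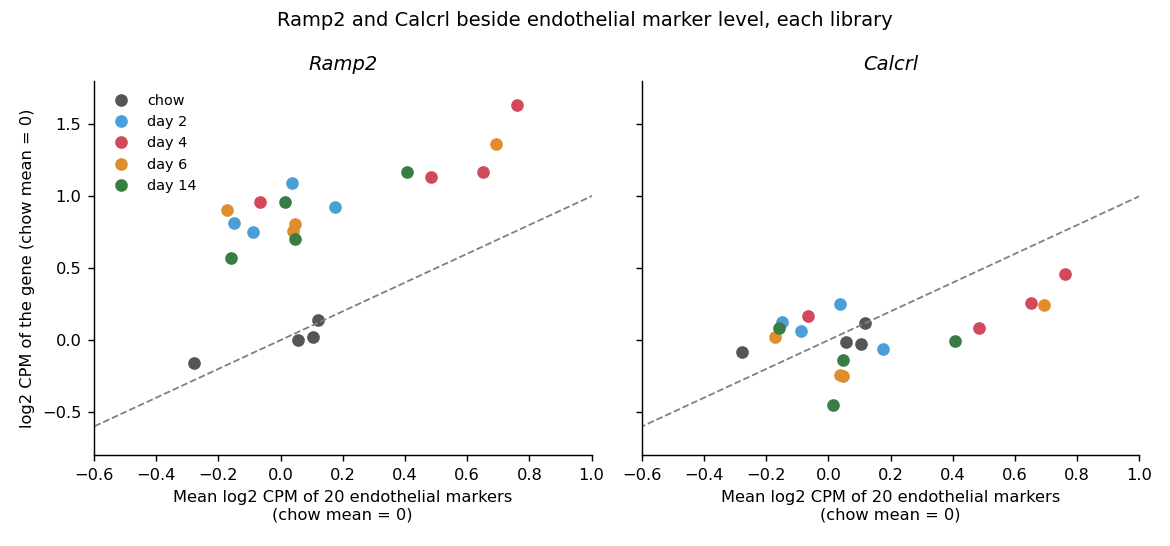
Log2 CPM of Ramp2 (left) and Calcrl (right), relative to its chow mean, against the mean log2 CPM of 20 endothelial markers, also relative to chow, 1 point a library. The dashed line is equal change; the high-fat points of Ramp2 lie above it, offset by 0.77 to 0.90 on average, and those of Calcrl scatter around it.

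Lymphatic endothelium, where the same receptor is active, was read with 7 tested markers. Of these, 1 was called lower on day 2 and 1 on day 4, in both cases Pdpn, a membrane glycoprotein also found on other stromal cells. The Pdpn calls were kept in 3 and 5 of 8 fits without 1 library on days 2 and 4. The day 2 count stands beside 1.96% of all genes called lower. Nrp2, a receptor for semaphorins and lymphatic growth factors, was called higher on day 4 (0.90, edgeR adjusted p = 0.00868). The day 4 counts of 1 higher and 1 lower stand beside 18% and 17.3% of all genes called higher and lower on that day. On days 6 and 14 edgeR called 0 (3 and 1 at an unadjusted p under 0.05, and 0 by DESeq2 or limma-voom). The median changes of the list were -0.20, -0.28, -0.16 and -0.31 on days 2, 4, 6 and 14, all below 0 with TMM scaling.

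The remaining cell types were read the same way. Over all genes, 2.43%, 18%, 1.99% and 0.878% were called higher on days 2, 4, 6 and 14. Those called lower made up 1.96%, 17.3%, 1.46% and 0.302%. Of 12 pericyte and smooth muscle markers 2 rose on day 4 (Cspg4 by 1.36 and Acta2 by 1.28) and 1 on day 14 (Mcam by 0.36, kept in 1 of 8 fits without 1 library), with 0 by edgeR on days 2 and 6 (2 at an unadjusted p under 0.05 on each, 1 by DESeq2 on each and 0 by limma-voom). Of 10 adipocyte progenitor markers 1 fell on day 2. On day 4, 2 rose, among them Thy1 (1.35), and 3 fell, among them Pdgfra (-1.11) and Dcn (-1.25), each of these named calls kept in 8 of 8 fits. For this list edgeR called 0 on days 6 and 14 (4 and 3 at an unadjusted p under 0.05, 2 and 1 by DESeq2, 2 and 0 by limma-voom). Of 12 adipocyte markers 1, Lep, the leptin gene, rose on each of the 4 days, by 1.17, 2.05, 1.47 and 1.49 (kept in 3, 8, 3 and 3 of 8 fits without 1 library, and lost on days 2, 6 and 14 without chow replicate 2 or 4, among others), and Adipoq (-0.92) and Cfd (-2.26) fell on day 4. Of 12 macrophage markers 2 fell on day 4 (Cd14 by 1.17 and Mertk by 0.60), and edgeR called 0 on days 2, 6 and 14 (2, 0 and 0 at an unadjusted p under 0.05, and 0 by DESeq2 or limma-voom).

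Of 9 mesothelial markers 8, 9, 1 and 0 fell on days 2, 4, 6 and 14 by edgeR, beside 1.96%, 17.3%, 1.46% and 0.302% of all genes. The day 4 count was 9 in each of 8 fits without 1 library. The day 2 count was 0 without day 2 replicate 4, 2 without chow replicate 2, 3 without day 2 replicate 1 and 4 without chow replicate 4. The day 6 count was 0 without chow replicate 4 or day 6 replicate 2, 3 or 4, 3 without day 6 replicate 1, and 4 by DESeq2 and by limma-voom. On day 14, 6 markers had an unadjusted p under 0.05, DESeq2 called 1 and limma-voom 0. All 8 proliferation markers rose on day 4, by edgeR, DESeq2 and limma-voom and in each of 8 fits without 1 library. On day 6 edgeR and limma-voom called 0 of them, but all 8 had an unadjusted p under 0.05 and were called by DESeq2, and edgeR called 8 without day 6 replicate 1. On days 2 and 14 none was called by the 3 tools or had an unadjusted p under 0.05. The part of these cell types in the 5 genes was not tested.

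The other peptides of the family were scarcely read. Calca, which encodes CGRP and calcitonin, was the only one of 4 to pass the filter, at 0.918 CPM on chow and 1.70, 0.968, 1.12 and 1.43 CPM on days 2, 4, 6 and 14. Its changes of 0.87, 0.29, 0.26 and 0.61 were not called (edgeR adjusted p = 0.185, 0.616, 0.723 and 0.452). Adm2 had 5 reads, Calcb 29 and Iapp, the amylin gene, 0 reads in all 20 libraries. Calcr, the calcitonin receptor that RAMPs turn into amylin receptors, had 3 reads. Of the receptors that bind these peptides with a RAMP, Calcrl was thus the one read in number.

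Genes that make or clear adrenomedullin, or couple its receptor, were called on day 4. Pam, the amidating enzyme that completes the peptide, was at 101 CPM on chow and 143 ± 40.2 CPM on day 4 (0.50 ± 0.17, edgeR adjusted p = 0.0305), a call lost in 6 of 8 fits without 1 library. Mme, encoding the protease neprilysin that degrades it, rose on day 4 (0.47 ± 0.16, kept in 3 of 8 such fits) and day 6 (0.71 ± 0.16, kept in 4 of 8). Crcp, encoding a protein described as a coupling component of the CGRP and adrenomedullin receptors, rose on day 4, from 14.6 to 16.1 CPM on chow to 20.2 to 27.1 CPM. Its change was 0.67 ± 0.14 (edgeR adjusted p = 0.00239), kept in 8 of 8 fits. Ackr3, an atypical receptor that takes up adrenomedullin, and Gpr182, an orphan receptor once proposed for it, were not called on any day.

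Of 39 tested genes of the wider pathway, from ligands to cyclic AMP targets, 2 were called higher and 1 lower on day 2, 13 higher and 7 lower on day 4, 2 higher and 1 lower on day 6 and 1 higher on day 14. The median log2 change was -0.09, 0.15, 0.09 and 0.09, beside -0.03, -0.02, -0.01 and -0.01 over all genes. The background share called higher was 2.43%, 18%, 1.99% and 0.878% on days 2, 4, 6 and 14. The share called lower was 1.96%, 17.3%, 1.46% and 0.302%, and the 7 genes called lower on day 4 were near it. With scaling by library size only, where the median change of all genes from chow was -0.14 to -0.10, the day 4 split was 5 higher and 8 lower. Without chow replicate 4 the day 4 count was 8 in place of 20.

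**Figure D5:**
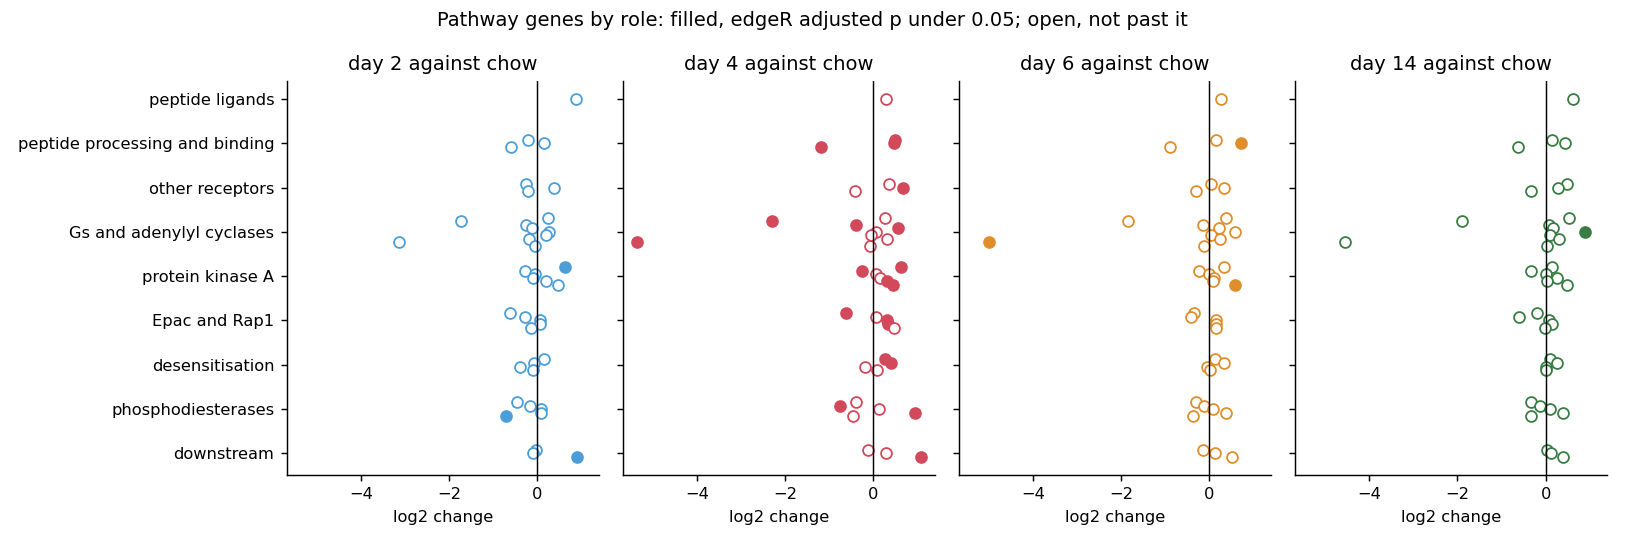
Log2 change against chow (horizontal axes) of the 39 tested pathway genes on each high-fat day, grouped by role (rows) and spread slightly within a row. Filled points passed an edgeR adjusted p under 0.05, 20 on day 4 against 3, 3 and 1 on days 2, 6 and 14. Of all genes, 35.3% passed it on day 4 and 4.39%, 3.45% and 1.18% on days 2, 6 and 14. The far left points on days 4 and 6 are Adcy8, at -5.36 and -5.00.

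Downstream of the receptor, calls were found among the nitric oxide and kinase genes, and some of them rested on single libraries. Nos3, the endothelial nitric oxide synthase that carries the vasodilator signal, was at 35.6 to 70.1 CPM on chow and 88.7 to 144 CPM on day 4. It rose by 1.08 ± 0.23 (edgeR adjusted p = 0.00242), kept in 8 of 8 fits without 1 library. On day 2 Nos3 was at 72.3 to 114 CPM, a rise of 0.91 ± 0.23 (edgeR adjusted p = 0.0329) that was lost in 5 of 8 fits, with edgeR adjusted p up to 0.121 without day 2 replicate 4. Nos3 is itself an endothelial gene, and the part of endothelial cells in its level was not tested. The endothelial markers had a median log2 change of -0.01 on day 2 and 0.46 on day 4. Prkaca, the main catalytic subunit of protein kinase A, rose on day 2 (0.62 ± 0.16, kept in 2 of 8 fits) and day 4 (0.63 ± 0.16, kept in 8 of 8). Prkar2b, its regulatory subunit of adipocytes, rose on day 4 (0.45 ± 0.15, kept in 3 of 8 fits) and day 6 (0.58 ± 0.15, kept in 3 of 8), Prkar2a rose on day 4 (0.32, kept in 2 of 8 fits) and Prkacb fell on day 4 (-0.25, kept in 3 of 8).

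Among adenylyl cyclases, which make cyclic AMP, Adcy4 rose (0.56) and Adcy3 fell (-0.40) on day 4, and Adcy5 rose on day 14 (0.90). Each of these calls was kept in 2 of 8 fits. Adcy8 was called lower on days 4 and 6 and Adcy1 on day 4, but Adcy8 measured 45.7 CPM in the highest chow library, and without chow replicate 4 the edgeR adjusted p was 0.343 and 0.650 for Adcy8 and 0.123 for Adcy1. Rap1a (0.31) and Rap1b (0.34), small GTPases that act in the endothelial barrier response to cyclic AMP, rose on day 4 in 8 of 8 fits, while Rapgef3, which encodes their activator EPAC1, fell (-0.61, kept in 2 of 8). The receptor kinases Grk2 (0.27) and Grk5 (0.40) rose on day 4, kept in 5 and 2 of 8 fits. Of the phosphodiesterases, Pde4d fell on day 2 (-0.71), and on day 4 Pde3b fell (-0.75) and Pde4b rose (0.96), kept in 2, 4 and 4 of 8 fits. Among the pathway calls of day 4 that were lost in some fit, those of Adcy8 and Adcy1 were lost without chow replicate 4. Mme was lost without chow replicate 1, 2 or 4 or day 4 replicate 1 or 3, and each of the others was lost without day 4 replicate 4, among other libraries. The pathway calls of days 2, 6 and 14 were each lost without chow replicate 4.

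RAMPs also pair with other receptors, and 8 of 14 such genes passed the filter. Pth1r, the parathyroid hormone receptor and a known partner of RAMP2, fell on all 4 days. It ran from 18.8 to 37.5 CPM on chow, 8.09 to 15.2 CPM on day 2, 8.89 to 14.9 CPM on day 4, 11.8 to 16.2 CPM on day 6 and 7.31 to 13.3 CPM on day 14. No high-fat library reached the lowest chow library, a pattern that 7.26%, 15%, 5.74% and 4.65% of all genes showed in this direction on days 2, 4, 6 and 14. The log2 change of Pth1r was -1.36 ± 0.24, -1.41 ± 0.24, -1.11 ± 0.23 and -1.43 ± 0.24 on days 2, 4, 6 and 14, with edgeR adjusted p = 0.00922, 0.00119, 0.028 and 0.00756.

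The Pth1r calls on days 4 and 14 were kept in 8 of 8 fits without 1 library. The day 2 call was lost without day 2 replicate 4 (-1.25, edgeR adjusted p = 0.0596). The day 6 call was lost without chow replicate 4 (-1.07, edgeR adjusted p = 0.103) and without day 6 replicate 2, 3 or 4 (edgeR adjusted p = 0.076, 0.0803 and 0.0983). The mesothelial markers that fell beside it summed to 397 to 518 CPM on chow, 124 to 191 CPM on day 2, 82.2 to 240 CPM on day 4, 178 to 312 CPM on day 6 and 176 to 379 CPM on day 14, and their part in the Pth1r level was not tested. The other calls of this list were all on day 4: Sctr, the secretin receptor, fell (-2.14, kept in 8 of 8 fits), Gcgr, the glucagon receptor, fell (-0.95, kept in 1 of 8) and Vipr2, a receptor for vasoactive intestinal peptide, rose (1.01, kept in 4 of 8, and not called with scaling by library size only). The list's median change was -0.59, -0.76, -0.14 and -0.19 on days 2, 4, 6 and 14. Its calls stand beside 1.96%, 17.3%, 1.46% and 0.302% of all genes called lower on those days, and 18% called higher on day 4.

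Adm is a textbook target of hypoxia, and 16 other hypoxia-responsive genes were read beside it. On day 2 edgeR called 0 of them (5 at an unadjusted p under 0.05, 3 by DESeq2 and 0 by limma-voom). On day 4, 5 rose and 3 fell, with a median of -0.02, on a day when 18% of all genes were called higher and 17.3% lower. Higd1a, a mitochondrial protein induced by low oxygen, rose by 0.82 and Vegfa, the vascular growth factor, by 0.54, while Ndrg1 fell by 1.10 and Pdk1, a kinase that holds back pyruvate oxidation, by 0.58. Pdk1 was also lower on day 6 (-0.59, kept in 0 of 8 fits without 1 library) and day 14 (-0.92, kept in 8 of 8). Without day 4 replicate 4 the count on day 4 was 3 and Vegfa was not called (edgeR adjusted p = 0.0575), and with library size only the split was 3 higher and 5 lower.

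Of 14 angiogenic ligands and receptors, 4 rose and 1 fell on day 4, beside 18% and 17.3% of all genes called higher and lower. On day 2, 1 fell (Notch1, by 0.64, kept in 2 of 8 fits without 1 library), beside 1.96% of all genes called lower. On days 6 and 14 edgeR called 0 (2 and 3 at an unadjusted p under 0.05, 0 and 1 by DESeq2, and 0 by limma-voom). Apln, the apelin gene of growing vessel tips, went from 3.84 to 14.7 CPM on chow to 28.8 to 93.9 CPM on day 4, a rise of 2.70 ± 0.57 (edgeR adjusted p = 0.00247). Its receptor gene Aplnr (1.70) and the Notch ligand gene Dll4 (0.71) also rose on day 4, and Angpt1, a stabilising ligand of vessels, fell (-1.62). Apln was kept in 8 of 8 fits, Dll4 in 7, Aplnr in 3 and Angpt1 in 3, and without day 4 replicate 4 the list had 1 call on day 4 in place of 5.

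The genes whose pattern was most like that of Ramp2 over the 20 libraries, by Pearson correlation of log2 CPM among 13641 genes, were Map7d1 (0.911), Trp53inp2 (0.908), Zfp423 (0.906), Reep4 (0.897), Il17d (0.892), Myadm (0.873), Orai1 (0.870) and Fam20c (0.869). These correlations include the step between diets, the libraries share depth and composition, and no p is given. Trp53inp2, a regulator of autophagy, went from 337 to 473 CPM on chow to at least 934 CPM in every high-fat library. Zfp423, a regulator of preadipocyte commitment, went from 33.7 to 46.4 CPM on chow to 51.1 to 65.0 CPM on day 2. Ranked by Spearman correlation, Map7d1 and Orai1 remained among the first 8, so 6 of these names depend on the measure.

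None of the other members lay near Ramp2 on that scale. Calcrl correlated with Ramp2 at 0.377, rank 3586 of 13641, Adm at 0.167, rank 5411, and Ramp1 at -0.58, rank 12130. The genes most like Calcrl were Khdrbs1 (0.851), Mef2a (0.779) and Klhl4 (0.778), those most like Adm were Itga1 (0.818), Sdcbp2 (0.804) and Zfp57 (0.801), and those most like Ramp1 were Baiap2l1 (0.913), Fbxl12 (0.868) and Armc10 (0.868). Baiap2l1, an actin regulator of epithelial cells, was, like Ramp1, at 7.10 CPM in its highest chow library. By Spearman correlation 1 of the 3 genes remained for Calcrl, 0 for Adm and 1 for Ramp1.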

How the data were processed

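RNA from epididymal fat was sequenced after TruSeq library preparation, per the labels' protocols. The deposited table holds raw read counts per Ensembl gene ID, as whole numbers with 1 column per library. Per the submitters' processing notes, CASAVA, STAR, featureCounts, limma and R 3.0 were used, with no role stated. The genome build, annotation and strand setting are not given in the sources used here, so no coordinates are printed, and reads of overlapping or antisense genes cannot be told apart. In GENCODE M21, 101 exon bases of Ramp3 (7.319%) are also antisense to Gm11978.

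Symbols were matched by ID (37607 of 39179). Genes of low count were dropped by filterByExpr (count of 10, total of 15). The rest were scaled by TMM and tested in 1 fit of all 20 libraries with edgeR 4.0.16 (quasi-likelihood F test, robust, 15 residual degrees of freedom, R 4.3.3). In each of 7 comparisons, p-values were adjusted by Benjamini-Hochberg over the 15254 genes. The 4 comparisons with chow share the chow libraries. SEs come from the F statistic. Levels per kilobase use the longest GENCODE M21 transcript paired with a RefSeq mRNA. Log2 CPM used a prior count of 2. P-values measure the spread between libraries described as biological replicates.

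The members, lists and tests were chosen with earlier results of these data known. Named genes are the 5 members, up to 4 called genes of each list and comparison with the smallest adjusted p (or the 2 most abundant where a list had no call), and the 8 genes most like Ramp2 and 3 most like each other member (mean of at least 1 CPM). Genes of a list that lie outside this rule are given as read counts or named as not called. The result of 1 gene that the rule names is not reported here.

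Alternatives were RLE size factors, library size only, no filter, a stricter filter (1 CPM in 4 libraries, mean of 2 CPM), DESeq2 1.42.0, limma-voom 3.58.1, a threshold of 0.01, a replicate block, only the groups compared, a prior count of 0.5, and leaving out libraries. No 2 columns were identical, and log2 CPM correlated at 0.954 to 0.989 within groups. The steps were tested on simulated data.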

Additional observations from a re-analysis of the deposited data

Results flagged for a closer look

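In 7 of 100 groups of 4 libraries checked, the highest or lowest library lay far from the other 3, where chance gives about 5 (1 in 20). On chow, Ramp3 was at 7.04 CPM in replicate 4 against at most 0.407 CPM in the others, and the duct epithelium and epididymis markers summed to 249.9 CPM in the same library against 19.8 to 28.8 CPM. On day 4, the hypoxia-responsive genes summed to 4854 CPM in replicate 4 against 4056 to 4134 CPM, the duct markers to 15.8 CPM in replicate 3 against 5.25 to 6.86 CPM, and Calcrl relative to the endothelial markers was -1.47 in replicate 1 against -2.11 to -2.01 (log2). On day 6, replicate 4 held 3424 CPM of endothelial markers against 1833 to 2088 CPM, and 1873 CPM of pericyte and smooth muscle markers against 1457 to 1496 CPM.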

How the results depend on the processing

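Under all alternatives run, 133 of 133 Ramp2 changes differed from their main value by less than the SD of its log2 CPM within groups. The Ramp2 changes from chow kept their sign, while that from day 6 to day 14 turned positive (0.05) without day 6 replicate 4. Calcrl kept its side of the threshold in 132 of 132 values. Adm did so in 131 of 132 (the exception was day 6 against day 4, -0.75, without the 4 libraries that stood apart) and Ramp1 in 127 of 132. Ramp1 on day 4 was no longer called at a threshold of 0.01 (-1.17), without chow replicate 4 and day 2 replicate 1 together (-0.87) or without the 4 libraries (-0.88). Without each library in turn it ranged from -1.38 to -0.87.

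Counts over all genes moved more, on day 2, day 6, day 14 and day 4 against day 2 in turn. They were 317, 130, 96 and 0 with no filter, 1412, 1180, 659 and 912 by DESeq2 (53 for day 6 against day 4), 39, 11, 37 and 0 at a threshold of 0.01 (2635 on day 4), 177, 0, 79 and 0 with only the groups compared, 7, 3, 37 and 0 without the 2 libraries together, and 13, 4, 68 and 2456 without the 4 libraries (2272 for day 6 against day 4). Limma-voom gave 444 on day 2 and 0 for day 4 against day 2, and library size only 907 on day 6 and 0 for day 4 against day 2. With library size only, the day 4 calls were 1750 higher and 3681 lower, and those of day 2, 228 and 593. Without each library in turn the counts were 43 to 1758 on day 2 (43 without day 2 replicate 4), 3213 to 5721 on day 4, 7 to 1343 on day 6 (7 without chow replicate 4), 45 to 482 on day 14, 0 to 2240 for day 4 against day 2 and 0 to 737 for day 6 against day 4.

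Pathway calls on days 2, 4, 6 and 14 were 0, 5, 0 and 0 at a threshold of 0.01, 0, 13, 0 and 0 with only the groups compared, 0, 8, 0 and 0 without the 2 libraries, and 0, 12, 0 and 0 without the 4. On days 4, 6 and 14 they were 13, 5 and 0 with library size only. With no filter they were 0, 1 and 0 on days 2, 6 and 14, and DESeq2 gave 3 on day 14. Without each library in turn they were 0 to 5, 8 to 17, 0 to 5 and 0 to 2. The cause of these moves was not tested, beyond the fewer libraries or the stricter threshold of some settings.

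Libraries with the same replicate number deviated together little more than others. Over 40 such pairs the correlation of their deviations ran from -0.185 to 0.516, with a median of 0.038 and 12 over 0.1. Over 120 pairs with different numbers it ran from -0.692 to 0.376, with a median of -0.010 and 30 over 0.1. A fit with the replicate block gave 551 calls for day 4 against day 2 in place of 366 and changed no call of the members. Depth limits Ramp3 and Ramp1, with down to 0 and 3 reads a library.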
